A study of Mus musculus with 24 samples.

Results

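The genes described here encode initiation and elongation factors of cytoplasmic protein synthesis, together with regulators and modifying enzymes whose symbols carry the same prefixes. A gene was taken when its symbol in the deposited count table began with Eif1 to Eif6 or with Eef1 or Eef2, was not a pseudogene or predicted gene, and reached a mean CPM (counts scaled to a common library size) of at least 1 over the 24 libraries. The rule used only symbols and the mean level over all libraries, and no treatment contrast. It found 62 genes among the 49315 in the table, and all 62 were tested. A further 5 genes had matching symbols and were below the minimum. Eif4ebp3 came nearest, with a mean of 0.855 CPM and 5 to 28 counts per library, and the least abundant member by mean was Eif4e3. The others, Eef1a2, Eif2c5, Eif2s3y and Eif4e1b, had at most 6 counts in any library.

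RNA was sequenced from MS03, an immortalized Nf2-/- Schwann cell line that was derived from an Nf2 flox/flox mouse and exposed to Cre, so that the controls carried the same deletion as the treated cells. Every library therefore came from 1 line, and no Nf2-proficient cells were compared. Cells were kept for 24 h in DMSO, in 1 µM of the focal adhesion kinase (FAK) inhibitors defactinib, VS-4718, GSK2256098 or IN10018 (ifebemtinib), or in a FAK-targeting PROTAC. PROTACs join a ligand of the target to a recruiter of an E3 ubiquitin ligase and so cause degradation of the target protein. PROTAC FAK degrader 1 was used at 1 µM, and GSK215 and BSJ-04-0146 at 0.1 µM. There were 3 libraries per group in 8 groups. The labels call them biological replicates without naming separate cultures. The p-values therefore set differences against the variation between these libraries, estimated over all 8 groups together.

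Translation begins when eIF2 brings initiator methionyl-tRNA to the small ribosomal subunit, with eIF1, eIF1A, eIF3 and eIF5, while eIF4F (the cap-binding protein eIF4E, the scaffold eIF4G and the helicase eIF4A) recruits the capped mRNA. During elongation eEF1A delivers aminoacyl-tRNA, eEF1B recharges eEF1A with GTP, and eEF2 moves the ribosome along. Control is exerted through kinases that phosphorylate eIF2, through 4E-binding proteins that sequester eIF4E when mTOR is inactive, and through eEF2 kinase, which inhibits eEF2. Many of these mRNAs begin with a terminal oligopyrimidine tract that places their own translation under mTOR control. These are statements of background, and only mRNA was measured here.

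Total counts ranged from 14472462 to 27449516 per library, and the PROTAC libraries were the smallest. Of 9 Schwann cell markers 6 exceeded a mean of 1 CPM, among them Sox10, whereas S100b, Gfap and Egr2 were below 1 CPM in every library. Summed CPM of the 9 markers was 54.1 to 58.0 with DMSO, 246 to 260.1 with GSK215, 221 to 244 with BSJ-04-0146 and 52.0 to 58.3 with PROTAC FAK degrader 1. Among the kinase inhibitors it was 115.9 to 129.8 with VS-4718, 77.1 to 85.5 with defactinib, 76.4 to 80.4 with GSK2256098 and 57.7 to 59.7 with IN10018, so that of these only IN10018 overlapped DMSO. Of 4 macrophage markers, Ptprc and Adgre1 had at most 1 count in any library, and Csf1r was at 0.131 to 1.12 CPM. Cd68 reached 2.83 to 11.8 CPM and made up most of that list's sum. The sum was 3.35 to 3.86 with DMSO and 11.1 to 12.1 with PROTAC FAK degrader 1. It was 6.25 to 9.50 with the other PROTACs and 3.49 to 5.95 with the kinase inhibitors. Of 4 fibroblast markers Lum was at 0, and the sum, mostly Col1a1, was 381 to 401 with DMSO, 495 to 499 with GSK215, 374 to 413 with BSJ-04-0146, 374 to 509 with the kinase inhibitors and 299.9 to 304 with PROTAC FAK degrader 1. The 3 neuronal markers summed to 2.31 to 5.46 and the 3 endothelial markers to at most 0.557. Mitochondrially encoded genes took 3.03% to 3.06% of counts with DMSO, 1.85% to 1.89% with PROTAC FAK degrader 1 and 3.83% to 4.25% with GSK215. The part of these differences in the results below was not tested. Ptk2, which encodes FAK, was at 92.9 to 97.7 CPM with DMSO and 95.6 to 101.7 with PROTAC FAK degrader 1, where it was not called (0.03, edgeR adjusted p = 0.396). It was lower with GSK215, at 77.4 to 78.6 CPM (-0.29, edgeR adjusted p = 6.47e-09), and with BSJ-04-0146, at 78.1 to 81.0 (-0.26, edgeR adjusted p = 9.62e-08). Smaller falls were called with defactinib (-0.14), VS-4718 (-0.18) and GSK2256098 (-0.13), and none with IN10018 (-0.07, edgeR adjusted p = 0.183). Degradation of the protein cannot be read from its mRNA.

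In DMSO the elongation factor genes Eef1a1 and Eef2 were the most abundant members per length of exon. Mean CPM per kb was 3500 for Eef1a1, 1218 for Eef2, 905 for Eif5a, 475 for Eef1g and 384 for Eif4a1, and the least abundant per kb were Eif5a2 at 2.68, Eif4e3 at 2.82 and Eef2k at 4.19. Together the 62 genes took 3.16% to 3.19% of all counts with DMSO. The share was 3.57% to 3.67% with PROTAC FAK degrader 1, 2.55% to 2.57% with GSK215, 2.64% to 2.73% with BSJ-04-0146 and 2.64% to 2.67% with VS-4718, so the libraries of 1 PROTAC lay above and those of the other PROTACs below every DMSO library. The share was 2.88% to 2.90% with defactinib and 3.00% in all 3 libraries with GSK2256098, whereas that of IN10018, 3.19% to 3.25%, touched the DMSO range. A share of counts is relative, and in bulk RNA fewer cells of a type and less RNA per cell cannot be told apart.

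Each compound was compared with DMSO by edgeR's quasi-likelihood test, with p-values adjusted over all 16070 genes tested, and a gene was called at an adjusted p under 0.05. All 7 comparisons share the same 3 DMSO libraries, so their results are not independent. GSK215 lowered 53 members and raised 4, and BSJ-04-0146 lowered 49 and raised 4. Of all genes tested, 54.7% were called with GSK215 (27.4% higher, 27.2% lower) and 54.6% with BSJ-04-0146 (27.7% higher, 26.9% lower). The median log2 fold change of the members was -0.427 with GSK215 and -0.316 with BSJ-04-0146, against 0.021 and 0.018 over all genes. PROTAC FAK degrader 1 raised 22 members and lowered 33, in a background of 66.8% called (34.1% higher, 32.7% lower), and the members' median was -0.132. Here the shares of members called in each direction, 35.5% higher and 53.2% lower, thus stood near the background for rises and above it for falls. Library totals alone, in place of TMM scaling, moved the median of all genes up by 0.122 with GSK215 and 0.108 with BSJ-04-0146. The members were then 6 higher and 45 lower, and 8 higher and 41 lower, while the background became 38.5% higher and 17.8% lower with GSK215 and 37.4% higher and 18.5% lower with BSJ-04-0146. Relative to all genes, the members' medians were therefore on the same side under either scaling.

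The kinase inhibitors moved fewer members. VS-4718 lowered 39 and raised 6, in a background of 39.2% called (20.4% higher, 18.9% lower; with library totals 25% and 14.9%). Defactinib lowered 35 and raised 2, in a background of 22.4% (11.4% higher, 11% lower). GSK2256098 lowered 24 and raised 1, in a background of 12.5% (6.36% higher, 6.09% lower), but without its replicate 2 the number called fell from 25 to 16. With IN10018 7 members were called, 3 higher and 4 lower, in a background of 13.3% (6.44% higher, 6.85% lower), or 6 higher and 4 lower with library totals (7.45% and 5.97% of all genes). The number called with IN10018 was 11 with DESeq2, where 18.2% of all genes with an adjusted p were called, and 15 when only the groups compared were fitted, where 19.2% of all genes tested were called. Median log2 fold changes of the members were -0.178, -0.123, -0.0918 and 0.00429 in this order. At a fold change of at least 1.5, a single member remained called over these 4 compounds, Eef1a1 with VS-4718, as against 12 with PROTAC FAK degrader 1, 7 with GSK215 and 5 with BSJ-04-0146. Of all genes tested, 5.56% passed both limits with VS-4718, 1.65% with defactinib, 0.778% with GSK2256098 and 0.66% with IN10018. The share was 30.8% with PROTAC FAK degrader 1, 15.7% with GSK215 and 16.1% with BSJ-04-0146. With each compound the share of the 62 members past both limits was below that of all genes.

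**Figure D1:**
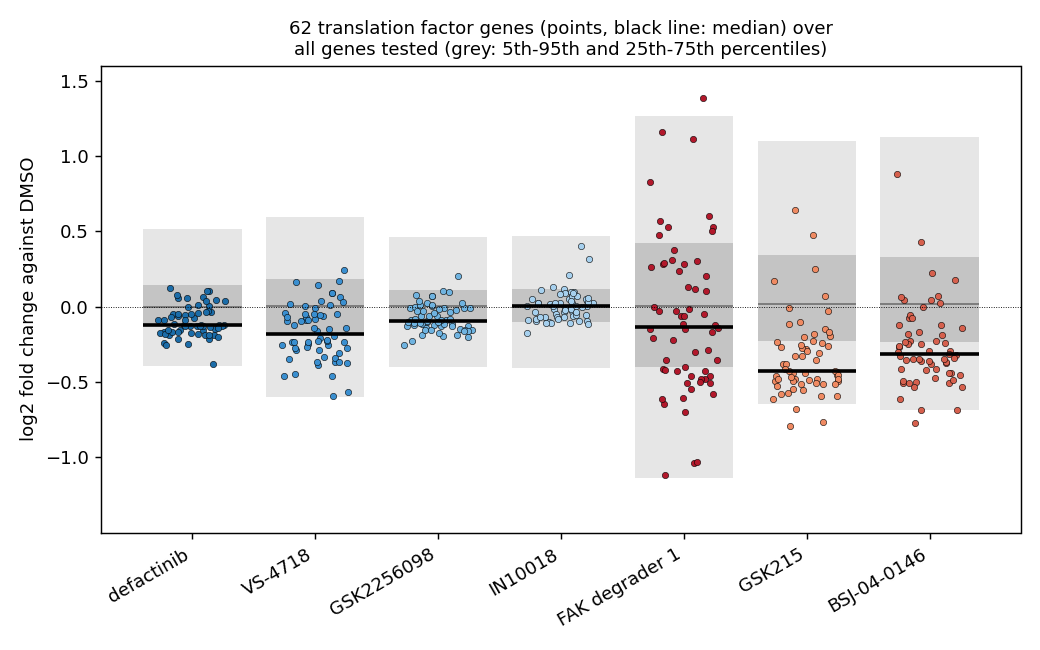
Log2 fold change against DMSO (vertical axis) of the 62 members (points, with the median as a black line) for each compound, over the distribution in all 16070 genes (light grey from the 5th to the 95th percentile, dark grey from the 25th to the 75th, thin line the median). The members lie mostly below 0 with GSK215 and BSJ-04-0146, are spread to both sides with PROTAC FAK degrader 1, and centre on 0 with IN10018.

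**Figure D2:**
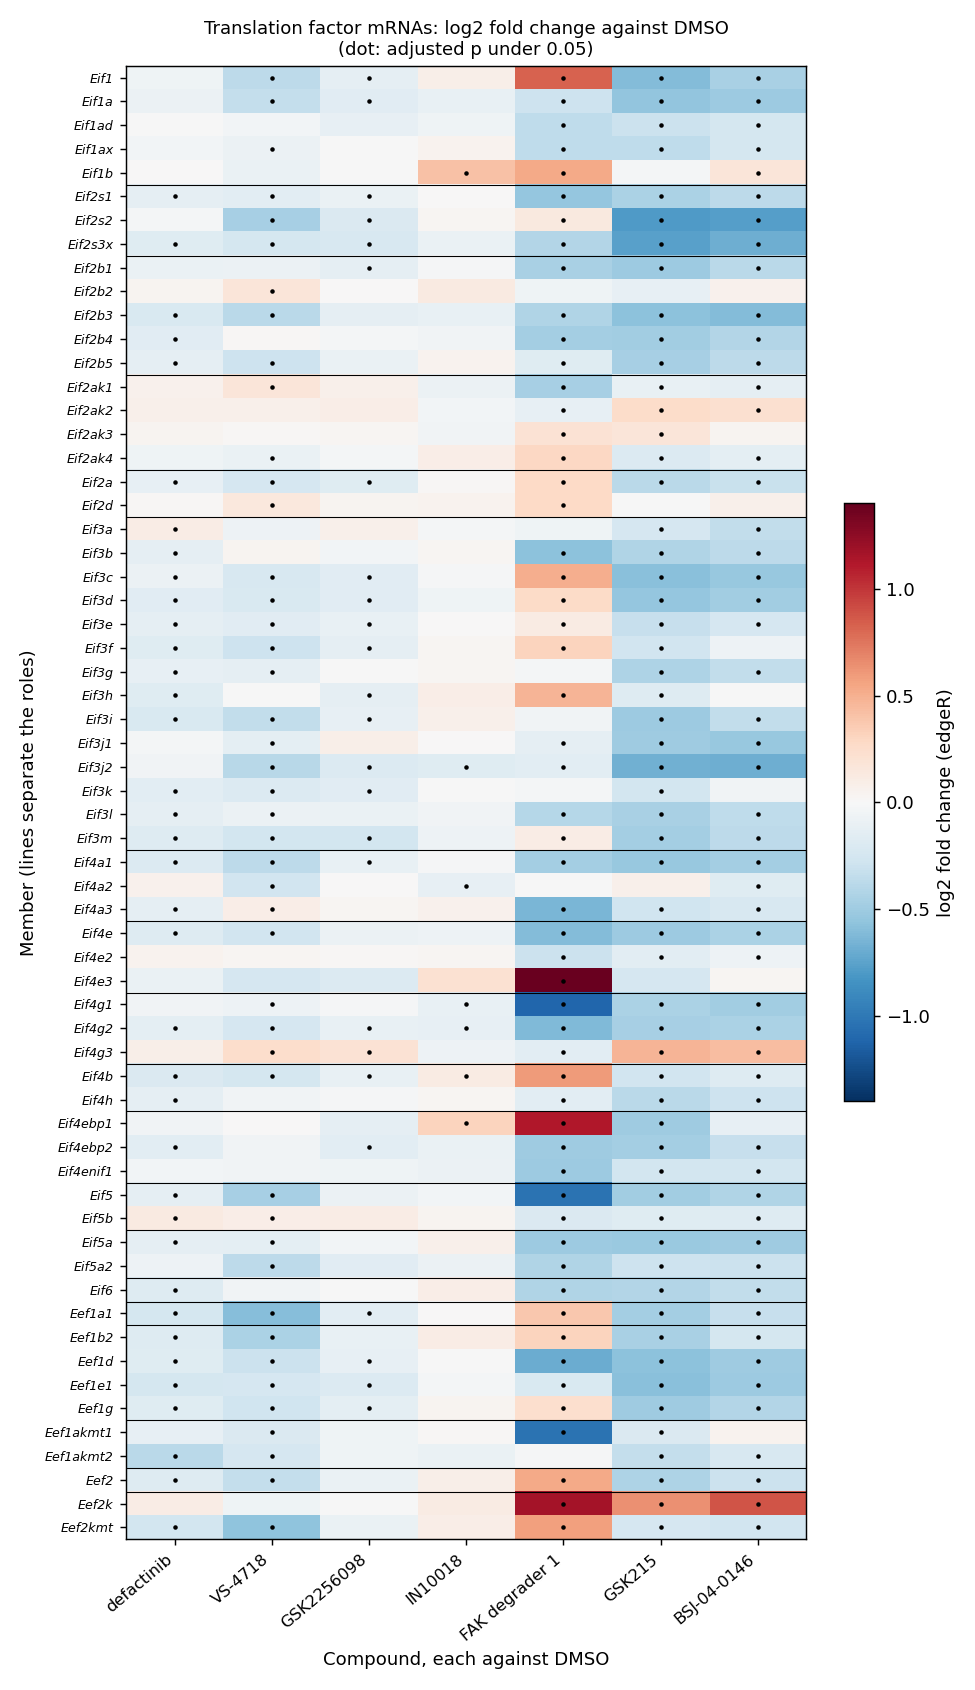
Log2 fold change against DMSO (colour) of each member (vertical axis, grouped by role) with each compound (horizontal axis), from edgeR, with a dot where the adjusted p was under 0.05. The columns of GSK215 and BSJ-04-0146 are blue in nearly all roles, whereas that of PROTAC FAK degrader 1 mixes red and blue within eIF1, eIF2, eIF3, eIF4 and eEF1B.

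Promoter sequence is shown for 3 members that the results turn on, Eef2 and Eef2k, which rose with PROTAC FAK degrader 1, and Eif4g1, which fell. The sequences are those of RefSeq on build GRCm38.p6, all on the plus strand. Each upstream stretch ends at the base before the annotated start, and capitals mark the motifs searched: CACGTG (the E-box of MYC, MITF and USF proteins), TGACGTCA (the cAMP response element) and TGATGNAA (the ATF4 composite element), each on both strands, and CTCTTNC (in which N is any base) on the sense strand.

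Eef2, chr10:81176431-81176630: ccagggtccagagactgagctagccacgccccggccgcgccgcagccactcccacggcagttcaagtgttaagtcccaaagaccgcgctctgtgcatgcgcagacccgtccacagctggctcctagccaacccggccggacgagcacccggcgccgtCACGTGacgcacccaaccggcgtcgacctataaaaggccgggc
Eef2, first 30 bases, chr10:81176631-81176660: gtTGACGTCAgcggtCTCTTCCgccgcagc
Eef2k, first of 3 listed starts, chr7:120842631-120842830: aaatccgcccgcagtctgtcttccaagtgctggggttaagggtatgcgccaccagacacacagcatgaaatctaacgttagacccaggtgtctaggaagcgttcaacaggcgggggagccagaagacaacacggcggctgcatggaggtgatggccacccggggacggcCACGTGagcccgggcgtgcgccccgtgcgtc
Eif4g1, chr16:20672527-20672726: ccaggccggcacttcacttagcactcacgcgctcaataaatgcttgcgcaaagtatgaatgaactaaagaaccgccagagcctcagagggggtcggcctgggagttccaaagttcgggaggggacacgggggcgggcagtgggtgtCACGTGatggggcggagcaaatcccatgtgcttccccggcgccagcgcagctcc

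CACGTG began 43 bases before the start of Eef2, 31 before that of Eef2k and 54 before that of Eif4g1. Its part in their changes was not tested. Eif4g1 held a second match that began at base 16 of the transcript, and Eef2k held CTCTTNC and TGATGNAA at another of its listed starts. Of 49 members with a promoter entry (250 bases before to 50 after the start), 12 held CACGTG, or 24.5%, as against 8.09% of 27025 genes with an entry. By direction with PROTAC FAK degrader 1, the 12 comprised 4 of the 17 higher members with an entry, 6 of the 26 lower and 2 of the 6 not called. CTCTTNC was held by 7 members (14.3%, against 14.6% of all genes), 5 of them among the higher (Eef1a1, Eef2, Eef2k, Eif3c and Eif3f) and 2 among the lower. TGACGTCA was found in 1 member (2.04%, against 2.03%) and TGATGNAA in 2 (4.08%, against 4.51%). These are matches of letters only.

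Of the 5 genes grouped by name with eIF1 and eIF1A, 2 rose and 3 fell with PROTAC FAK degrader 1. With GSK215 4 fell, and with BSJ-04-0146 1 rose and 4 fell. Counts by role, here and below, are small and stand against a background of 34.1% higher and 32.7% lower with PROTAC FAK degrader 1, 27.4% and 27.2% with GSK215, and 27.7% and 26.9% with BSJ-04-0146, so that 2 of 5 higher is near the background. Eif1, whose product guards start codon fidelity, was at 418, 419 and 426 CPM with DMSO and at 709, 736 and 798 with PROTAC FAK degrader 1. It was at 269, 269 and 289 with GSK215 and at 296, 311 and 315 with BSJ-04-0146. The 4 groups did not overlap, the first PROTAC lying above DMSO and the other PROTACs below. By edgeR the log2 fold change was 0.83 (SE 0.034, adjusted p = 5.36e-23) with PROTAC FAK degrader 1, -0.61 (SE 0.035, adjusted p = 6.59e-18) with GSK215 and -0.45 (SE 0.035, adjusted p = 3.55e-14) with BSJ-04-0146. Its paralog Eif1b was at 20.8 to 22.0 CPM with DMSO, 29.4 to 33.1 with PROTAC FAK degrader 1 and 27.6 to 29.9 with IN10018, where its log2 fold change of 0.41 (SE 0.055, adjusted p = 2.09e-06) was the highest of any member. With BSJ-04-0146 the change of Eif1b was 0.17, a call that was lost without DMSO replicate 1 and without the filter on low counts. An antisense transcript covers 12.7% of the exons of Eif1b. Eif1a, Eif1ax and Eif1ad fell with all 3 PROTACs, by 0.24 to 0.55 on the log2 scale.

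The 3 subunits of eIF2 fell together with GSK215 and BSJ-04-0146 and split with PROTAC FAK degrader 1. Eif2s2, the beta subunit, was at 417, 434 and 451 CPM with DMSO, 245, 251 and 255 with GSK215, 245, 254 and 264 with BSJ-04-0146, and 471, 473 and 484 with PROTAC FAK degrader 1. It had the largest fall of any member with GSK215 (-0.79, SE 0.036, edgeR adjusted p = 5.3e-21) and with BSJ-04-0146 (-0.77, SE 0.036, edgeR adjusted p = 1.3e-20). With VS-4718 it was at 308 to 321 CPM, a log2 fold change of -0.46. Eif2s3x, the gamma subunit that binds tRNA and GTP, was at 366 to 378 CPM with DMSO, 210 to 224 with GSK215, 223 to 236 with BSJ-04-0146 and 269 to 288 with PROTAC FAK degrader 1. Eif2s1, the alpha subunit that the stress kinases phosphorylate, was at 240 to 248, 175 to 183, 182 to 193 and 165 to 170 in the same order. Thus PROTAC FAK degrader 1 raised Eif2s2 by 0.13 while lowering Eif2s1 by 0.55 and Eif2s3x by 0.41, and the other PROTACs lowered all 3.

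Of the 5 subunits of eIF2B, the exchange factor that reloads eIF2 with GTP, 4 fell with each PROTAC. Eif2b2 was the exception, with log2 fold changes of -0.06, -0.12 and 0.06 with PROTAC FAK degrader 1, GSK215 and BSJ-04-0146 that were not called. Eif2b3 was at 63.7 to 69.4 CPM with DMSO and 40.5 to 46.3 with BSJ-04-0146, a change of -0.61 (SE 0.046, edgeR adjusted p = 2e-14).

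The 4 eIF2 kinases did not move as a group. Eif2ak4, the amino acid sensor GCN2, had a middle value of 58.6 CPM with DMSO, all 3 libraries being below those with PROTAC FAK degrader 1. It was at 71.0, 71.4 and 72.5 with PROTAC FAK degrader 1 and 50.5, 51.2 and 51.5 with GSK215. It was therefore above the controls with one PROTAC (0.29, SE 0.037, edgeR adjusted p = 6.37e-09) and below them with GSK215 (-0.20) and BSJ-04-0146 (-0.14), though both falls lost their call with library totals. Eif2ak1, the haem-regulated kinase HRI, was at 67.0 to 70.0 CPM with DMSO and 48.5 to 50.7 with PROTAC FAK degrader 1, a change of -0.46, and at 75.3 to 80.0 with VS-4718, a change of 0.17. Its fall by 0.10 with GSK215 became a change of 0.02 with library totals and was not called. Eif2ak2, the double-stranded RNA sensor PKR, was at 51.3 to 53.5 CPM with DMSO, 57.7 to 68.3 with GSK215, 58.0 to 63.4 with BSJ-04-0146 and 46.2 to 49.9 with PROTAC FAK degrader 1. The last difference (-0.11) lost its call with library totals and without any of 4 libraries. Eif2ak3, the endoplasmic reticulum sensor PERK, rose by 0.21 with PROTAC FAK degrader 1 and by 0.17 with GSK215, the second call being lost without DMSO replicate 1. Eif2a, an alternative initiator tRNA carrier, rose by 0.28 with PROTAC FAK degrader 1 and fell by 0.38 with GSK215 and 0.31 with BSJ-04-0146.

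eIF3, the scaffold of the initiation complex, is the largest group, with 14 genes. All 14 fell with GSK215, over a range of log2 fold changes from -0.68 to -0.18, and 11 fell with BSJ-04-0146. With VS-4718 11 fell, with defactinib 11 fell and 1 rose, with GSK2256098 9 fell and with IN10018 1 fell. Of all genes tested, 18.9%, 11%, 6.09% and 6.85% were lower with these compounds, and 11.4% were higher with defactinib. PROTAC FAK degrader 1 raised 6 (Eif3c, Eif3d, Eif3e, Eif3f, Eif3h and Eif3m), lowered 4 (Eif3b, Eif3l, Eif3j1 and Eif3j2) and left 4 without a call (Eif3a, Eif3g, Eif3i and Eif3k). Eif3c, a core subunit, was at 472, 477 and 480 CPM with DMSO, 666, 677 and 684 with PROTAC FAK degrader 1, 313, 317 and 319 with GSK215 and 315, 328 and 345 with BSJ-04-0146. The PROTAC FAK degrader 1 libraries were 142% of the DMSO level and the GSK215 libraries 66.5%. Eif3b, which carries an RNA recognition motif, went the other way with PROTAC FAK degrader 1, from 830 to 838 CPM down to 549 to 577 (-0.58, SE 0.030, edgeR adjusted p = 6.03e-20). Eif3h was at 342 to 352 CPM with DMSO, 464 to 501 with PROTAC FAK degrader 1 and 299 to 315 with GSK215. Eif3j2 fell by 0.68 with GSK215 and by 0.69 with BSJ-04-0146, but Eif3j1 and Eif3j2 are close copies whose reads the counting could have split, and an opposite-strand transcript covers 43.3% of the exons of Eif3d.

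**Figure D3:**
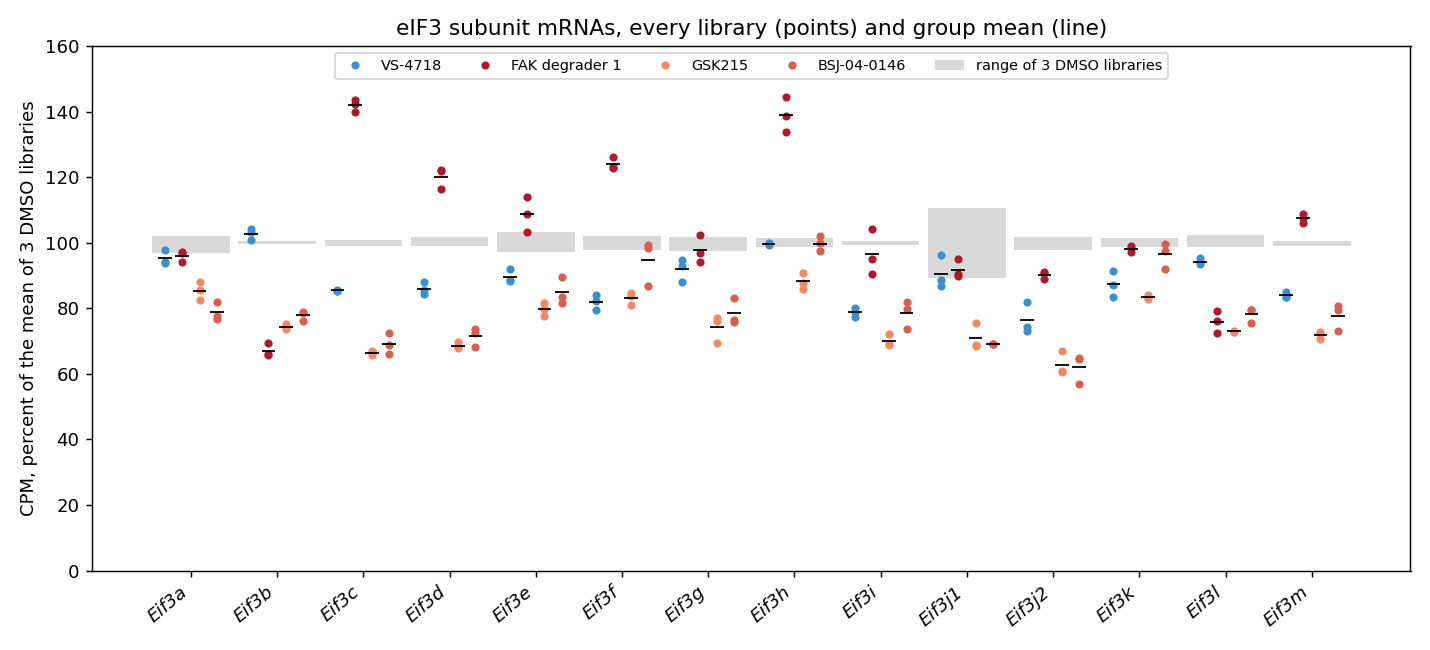
CPM of the 14 eIF3 genes (horizontal axis) in each library with VS-4718 and the 3 PROTACs, as a percent of the mean of the 3 DMSO libraries (vertical axis), with group means as lines and the range of the DMSO libraries in grey. With PROTAC FAK degrader 1 Eif3c and Eif3h lie well above 100% and Eif3b and Eif3l below, while GSK215 lies below the DMSO range throughout.

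The scaffold genes of eIF4F moved in different directions. Eif4g1, which bridges the cap, the helicase and eIF3, was at 1540, 1542 and 1545 CPM with DMSO, 704, 713 and 720 with PROTAC FAK degrader 1, 1131, 1139 and 1141 with GSK215 and 1082, 1086 and 1129 with BSJ-04-0146. The fall with PROTAC FAK degrader 1, to 46.2% of DMSO, was the largest of any member (-1.12, SE 0.028, edgeR adjusted p = 5.43e-30). The 4 kinase inhibitors left it at 1412 to 1537 CPM, and of these IN10018 (-0.11) and VS-4718 (-0.07) were called, the second with an adjusted p of 0.0486 by edgeR that was lost with library totals and on leaving out any of 5 libraries. Eif4g2, a relative that supports cap-independent initiation, fell by 0.61 with PROTAC FAK degrader 1, 0.47 with GSK215 and 0.44 with BSJ-04-0146. Eif4g3, the paralog of Eif4g1, was at 135, 135 and 136 CPM with DMSO and rose to 181, 192 and 193 with GSK215, to 177, 184 and 186 with BSJ-04-0146 and to 159, 160 and 162 with VS-4718. With PROTAC FAK degrader 1 it was at 122, 123 and 123, so the paralogs moved apart under 2 of the PROTACs and fell together under the other, where the small fall of Eif4g3 (-0.14) was lost with library totals. Per kb of exon, Eif4g1 exceeded Eif4g3 by a ratio of 17.2 to 17.3 with DMSO, 8.67 to 8.89 with PROTAC FAK degrader 1, 8.88 to 9.54 with GSK215 and 8.96 to 9.27 with BSJ-04-0146. All 3 PROTACs thus brought this ratio to a similar value through different changes of its parts.

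Of the 3 cap-binding genes and of the 3 genes for proteins that bind eIF4E, 1 rose and 2 fell in each group with PROTAC FAK degrader 1. Eif4e2, a cap-binding relative of eIF4E, fell by 0.30. Eif4e was at 240 to 245 CPM with DMSO, 156 to 161 with PROTAC FAK degrader 1, 164 to 178 with GSK215 and 172 to 183 with BSJ-04-0146. Eif4e3, a low-abundance relative, was at 6.59, 6.99 and 7.69 CPM with DMSO and at 16.8, 17.9 and 20.7 with PROTAC FAK degrader 1. Its rise was the largest of any member (1.39, SE 0.087, edgeR adjusted p = 3.32e-17), and no other compound changed it past the threshold. A same-strand gene model shares 14.8% of its exons. Eif4ebp1, the 4E-binding protein 4E-BP1, was at 161, 166 and 168 CPM with DMSO, 337, 354 and 380 with PROTAC FAK degrader 1, 194, 209 and 213 with IN10018 and 113, 115 and 123 with GSK215. It therefore rose with PROTAC FAK degrader 1 (1.12, SE 0.050, edgeR adjusted p = 5.06e-22) and IN10018 (0.32, SE 0.050, edgeR adjusted p = 2.59e-05) and fell with GSK215 by 0.49. Its paralog Eif4ebp2 was at 75.6 to 79.6 CPM with DMSO and 53.6 to 56.6 with PROTAC FAK degrader 1. The ratio of Eif4ebp1 to Eif4ebp2 per kb was 5.55 to 5.60 with DMSO and 16.2 to 17.7 with PROTAC FAK degrader 1, and that of Eif4e to Eif4ebp1 went from 0.531 to 0.545 down to 0.155 to 0.174. Eif4enif1, which carries eIF4E into the nucleus, fell with the 3 PROTACs, by 0.51 with PROTAC FAK degrader 1.

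Of the helicase genes, Eif4a1 fell with each PROTAC, from 1641 to 1691 CPM with DMSO to 1176 to 1207, 1150 to 1162 and 1169 to 1218 with PROTAC FAK degrader 1, GSK215 and BSJ-04-0146. These changes were close in size, at -0.48, -0.53 and -0.47. Eif4a2 was at 279 to 289 CPM with DMSO, 274 to 293 with PROTAC FAK degrader 1, 294 to 303 with GSK215 and 249 to 254 with BSJ-04-0146. BSJ-04-0146 lowered it (-0.17), a call lost with library totals. The GSK215 libraries lay above those of DMSO, a difference of 0.07 that was not called (edgeR adjusted p = 0.0682) but that was 0.20 and called higher with library totals. With PROTAC FAK degrader 1 the difference was -0.0029 and not called, or 0.08 and called higher with library totals (edgeR adjusted p = 0.0469). Eif4a3, a helicase of the exon junction complex, fell by 0.65 with PROTAC FAK degrader 1. Eif4b, which stimulates the helicase, was at 1049, 1055 and 1069 CPM with DMSO and 1565, 1603 and 1641 with PROTAC FAK degrader 1, a rise of 0.60 (SE 0.027, edgeR adjusted p = 5.85e-22). It was lower than DMSO with GSK215 (871 to 880), BSJ-04-0146 (917 to 944), VS-4718 (884 to 895), defactinib (914 to 924) and GSK2256098 (968 to 998, a change of -0.11), and higher with IN10018 (1139 to 1148).

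**Figure D4:**
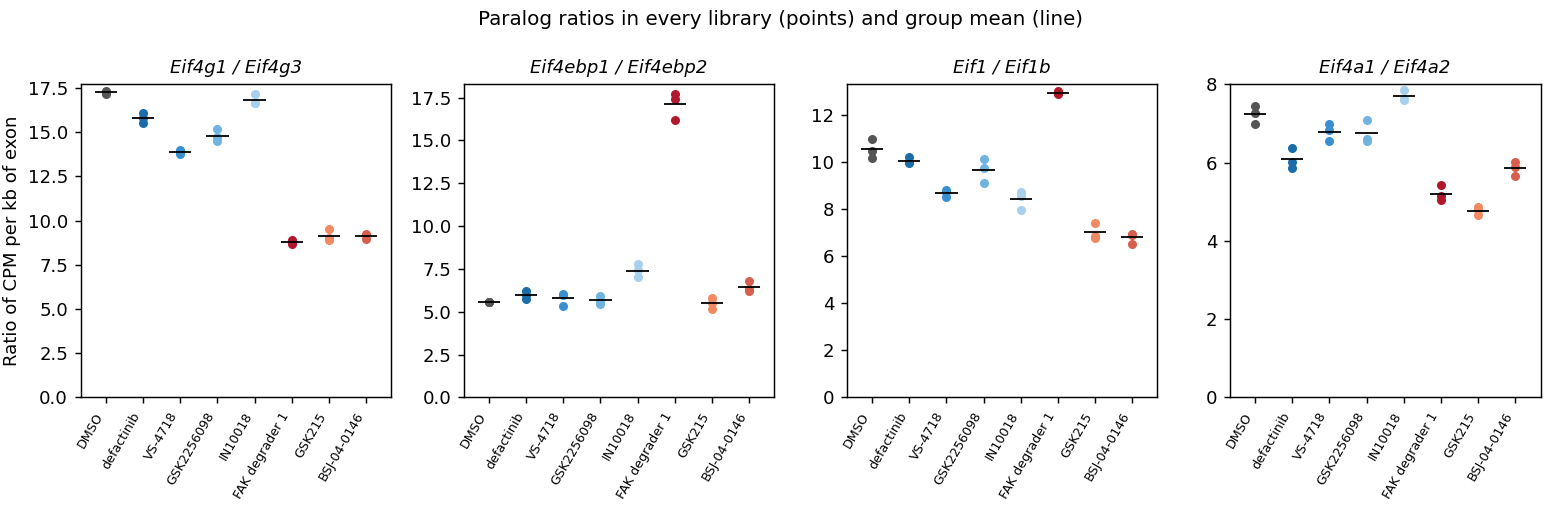
Ratio of CPM per kb of exon between paralogs (vertical axis) in each library of the 8 groups (horizontal axis), with group means as lines. Eif4g1 over Eif4g3 is low with all 3 PROTACs, and Eif4ebp1 over Eif4ebp2 is highest with PROTAC FAK degrader 1, at 16.2 to 17.7, followed by IN10018, at 7.02 to 7.78.

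Eif5, Eif5b, Eif5a and Eif6 fell with all 3 PROTACs. Eif5, the GTPase-activating protein of eIF2, was at 489, 492 and 494 CPM with DMSO and at 239, 241 and 243 with PROTAC FAK degrader 1, or 49.0% of DMSO (-1.03, SE 0.034, edgeR adjusted p = 5.2e-26). It was at 340 to 366 with GSK215, 353 to 380 with BSJ-04-0146 and 346 to 375 with VS-4718, which overlapped one another and lay between the DMSO and PROTAC FAK degrader 1 libraries. Eif5b, the GTPase of subunit joining, fell with PROTAC FAK degrader 1 by 0.21, GSK215 by 0.17 and BSJ-04-0146 by 0.18, the falls with GSK215 and BSJ-04-0146 losing their call with library totals. It rose with defactinib by 0.13 and with VS-4718 by 0.09, calls that were lost without DMSO replicate 3 or defactinib replicate 1, and without any 1 of the DMSO replicates or VS-4718 replicate 2 or 3. Eif5a, the hypusine-bearing factor that relieves stalled ribosomes, was at 2051 to 2215 CPM with DMSO and 1445 to 1556 over the 3 PROTACs. Eif6, which keeps the ribosomal subunits apart, fell by 0.42, 0.41 and 0.34 with PROTAC FAK degrader 1, GSK215 and BSJ-04-0146.

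The principal elongation factors rose with PROTAC FAK degrader 1 and fell with most other compounds. Eef1a1 was at 8613, 8748 and 8814 CPM with DMSO and 11028, 11320 and 11659 with PROTAC FAK degrader 1. It was at 6242 to 6298 with GSK215, 6534 to 7310 with BSJ-04-0146, 5686 to 5971 with VS-4718 and 7205 to 7482 with defactinib. Thus Eef1a1 was above DMSO in every library with PROTAC FAK degrader 1 (0.38, SE 0.031, edgeR adjusted p = 7.57e-14) and below DMSO in every library of these other compounds, most with VS-4718 (-0.59, SE 0.031, edgeR adjusted p = 1.72e-18). Processed copies of Eef1a1 are many in the mouse genome, and reads shared with them could have been lost or split.

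Eef2 was at 4037, 4053 and 4056 CPM with DMSO, 5742, 5765 and 6063 with PROTAC FAK degrader 1, 2923, 3008 and 3083 with GSK215, 3282, 3300 and 3310 with BSJ-04-0146 and 3046, 3283 and 3333 with VS-4718. It rose with PROTAC FAK degrader 1 (0.53, SE 0.033, edgeR adjusted p = 1.37e-17) and fell with the others, by 0.43, 0.30 and 0.33. Eef2k, whose product phosphorylates and inhibits eEF2, rose with all 3 PROTACs. It was at 29.8, 31.1 and 32.2 CPM with DMSO, 66.5, 69.5 and 72.1 with PROTAC FAK degrader 1, 47.4, 48.4 and 50.2 with GSK215 and 56.0, 56.8 and 58.6 with BSJ-04-0146. The 3 PROTACs overlapped neither DMSO nor one another. In the 12 kinase inhibitor libraries it lay between 28.3 and 34.9 CPM, and its adjusted p missed the threshold with each of these 4 compounds. With defactinib and IN10018 all libraries lay above those with DMSO and the unadjusted interval excluded 0 (adjusted p = 0.117 and 0.112 by edgeR). The 95% intervals of the log2 fold change were 0.0083 to 0.203 for defactinib, -0.156 to 0.040 for VS-4718, -0.109 to 0.089 for GSK2256098 and 0.018 to 0.215 for IN10018. Eef2k and Eef2 thus rose together with PROTAC FAK degrader 1 and moved in opposite directions with GSK215 and BSJ-04-0146. Eef2kmt, which methylates eEF2, was at 20.5 to 24.1 CPM with DMSO, 30.2 to 36.0 with PROTAC FAK degrader 1 and 14.2 to 15.9 with VS-4718, and its exons overlap Alg1 on the opposite strand over 17.6% of their length. The fall of Eef2kmt with defactinib, by 0.25, was lost without DMSO replicate 2.

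Of the eEF1B subunits, Eef1b2 and Eef1g rose with PROTAC FAK degrader 1 by 0.31 and 0.24, while Eef1d fell from 335 to 341 CPM to 202 to 218 (-0.70, SE 0.034, edgeR adjusted p = 7.3e-21). Eef1e1, which belongs to the aminoacyl-tRNA synthetase complex, fell by 0.22. With GSK215, BSJ-04-0146, VS-4718 and defactinib these 4 genes all fell, with GSK2256098 3 fell and with IN10018 none was called. Of all genes tested, 18.9% were lower with VS-4718, 11% with defactinib, 6.09% with GSK2256098 and 6.85% with IN10018. Eef1akmt1, which methylates eEF1A, was at 20.7 to 21.2 CPM with DMSO and 8.82 to 11.7 with PROTAC FAK degrader 1 (-1.04, SE 0.083, edgeR adjusted p = 3.79e-14), the only member apart from Eif4g1 and Eif5 that fell past -1 on the log2 scale.

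**Figure D5:**
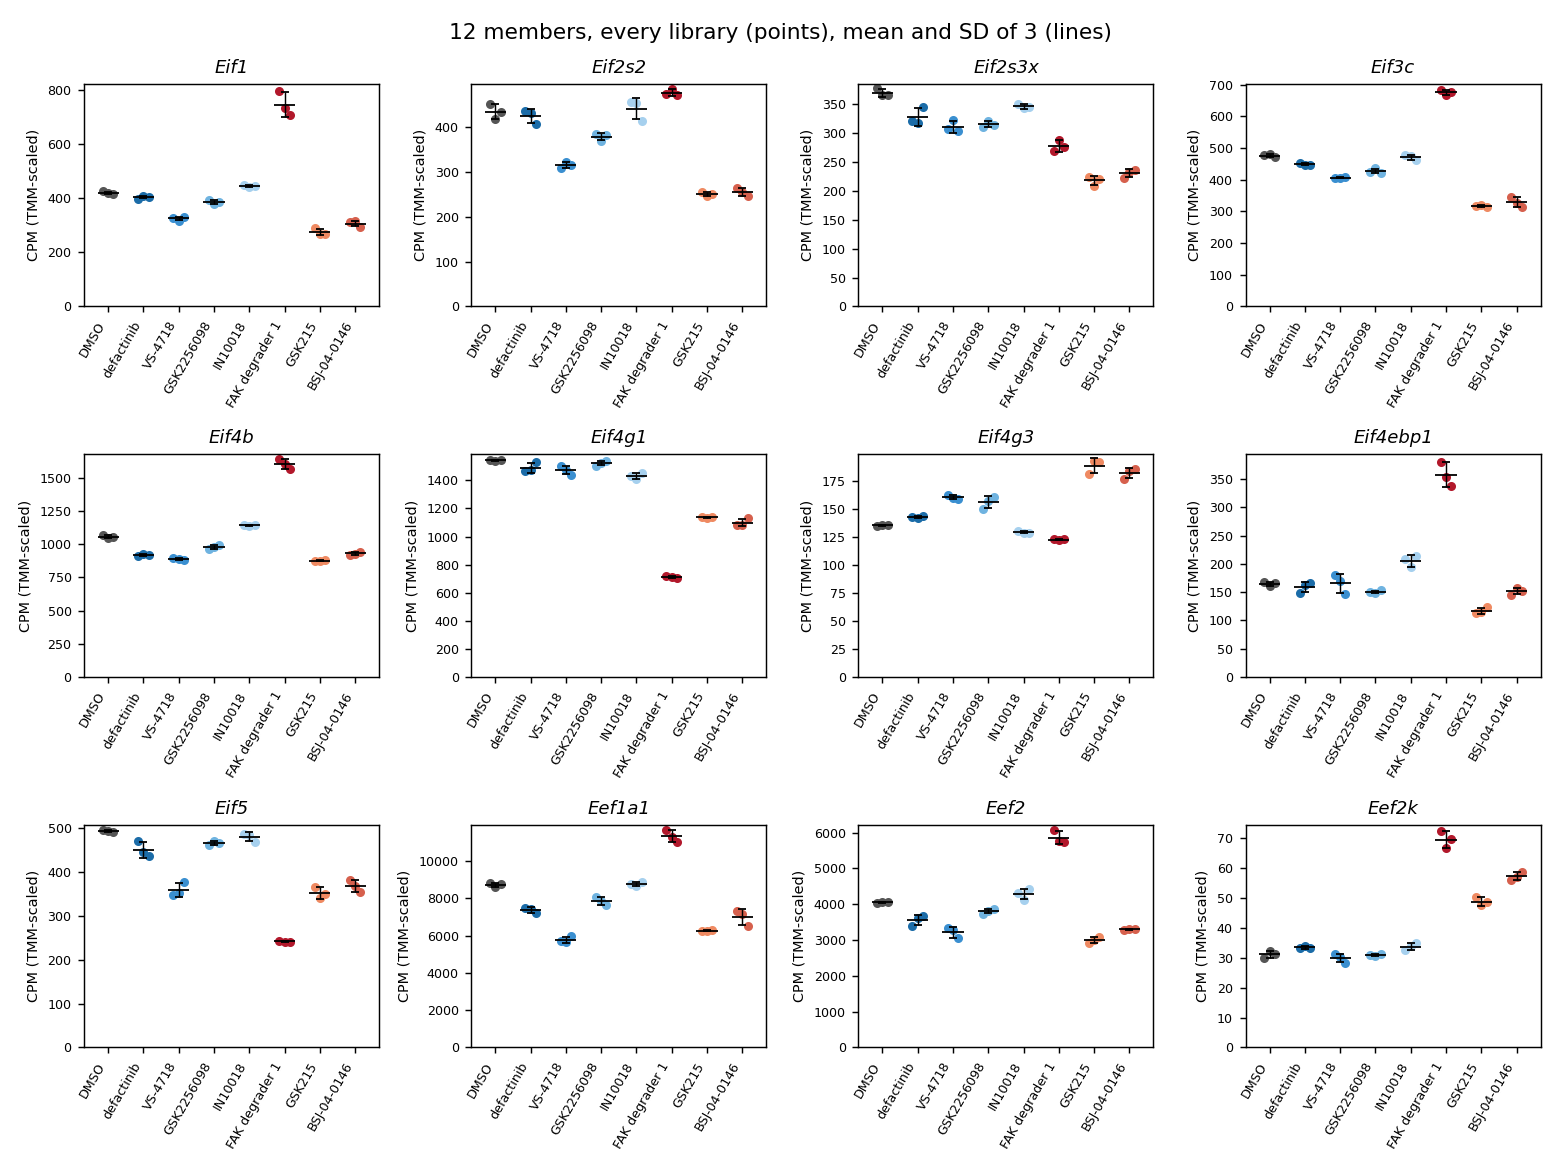
TMM-scaled CPM (vertical axis, from 0) of 12 members in every library of the 8 groups (horizontal axis), with the mean and SD of 3 libraries. Eef1a1, Eef2, Eif1, Eif3c and Eif4b lie above DMSO with PROTAC FAK degrader 1 and below it with GSK215 and BSJ-04-0146, Eif4g1 and Eif5 lie below DMSO with all 3, and Eef2k lies above DMSO with all 3.

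To compare the compounds by class at the doses used, the mean of the PROTACs was set against that of the kinase inhibitors, each compound weighted equally. By edgeR 41 members were lower and 14 higher, in a background of 66.6% of all genes called (34% higher, 32.6% lower), and with library totals 34 were lower and 20 higher, in a background of 44.1% higher and 23.7% lower. Libraries of the 2 classes did not overlap for 1 higher and 19 lower members, and for 4.52% (higher) and 5.82% (lower) of all genes tested. The higher one was Eef2k, at 181% of the kinase inhibitor level (0.86, SE 0.025, adjusted p = 7.64e-28), and the largest fall was that of Eif4g1 (-0.62, SE 0.015, adjusted p = 2.39e-30), followed by Eif5 (-0.47), whose VS-4718 libraries overlapped those of the PROTACs, and by Eif5a (-0.45), Eef1d (-0.44), Eif2s3x (-0.43) and Eif3b (-0.43). All 5 eIF2B genes, all 3 eIF2 subunits and 11 of 14 eIF3 genes were lower. The small falls of Eif3c (-0.08), Eif3e (-0.05) and Eif3m (-0.06) in this comparison turned to values of 0.00026, 0.033 and 0.028 with library totals. Without PROTAC FAK degrader 1, 47 members were lower and 4 higher, in a background of 30.4% lower and 31.1% higher, and Eef2k (0.72) and Eif4g1 (-0.40) kept their calls, while Eef2 turned from 0.07 to -0.23 and Eif4b from 0.16 to -0.12. At a fold change of at least 1.5 the class comparison kept 2 of the 62 members, below the background share of 12.6%. Of the PROTACs, PROTAC FAK degrader 1 shared the 1 µM dose of the kinase inhibitors, and GSK215 and BSJ-04-0146 were at 0.1 µM. Class, compound and dose therefore cannot be told apart in the class comparison. At the matched dose, PROTAC FAK degrader 1 differed from defactinib by 1.05 for Eef2k and -1.06 for Eif4g1 on the log2 scale.

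The contrast among the PROTACs was then tested directly. PROTAC FAK degrader 1 at 1 µM differed from the mean of GSK215 and BSJ-04-0146 at 0.1 µM in 49 members, 34 higher and 15 lower, in a background of 69.7% called (34.6% higher, 35.1% lower). The members' median difference was 0.21 on the log2 scale, against -0.025 over all genes. The largest were Eif4e3 (1.49, SE 0.078), Eif4ebp1 (1.42, SE 0.042), Eif1 (1.36, SE 0.029) and Eif3c (1.07, SE 0.025). Eif2s2 (0.92), Eef2 (0.90), Eif4b (0.83) and Eef1a1 (0.77) were among the other higher members. In eIF3, 12 of 14 genes were higher and Eif3b alone was lower. Lower members were led by Eef1akmt1 (-0.96, SE 0.077), Eif4g1 (-0.65, SE 0.025), Eif4g3 (-0.60, SE 0.028) and Eif5 (-0.58, SE 0.031), and Eef2k was higher by 0.40 (SE 0.037). At a fold change of at least 1.5, 16 of the 62 members remained called, below the background share of 30.5%. As the doses were unequal, compound and dose cannot be told apart here.

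Of the pairs of compounds at matched dose and time, 3 were compared, and the other pairs at 1 µM were not. At 0.1 µM, GSK215 and BSJ-04-0146 differed in 22 members, 20 lower and 2 higher with GSK215, in a background of 22.5% called (9.88% higher, 12.6% lower), but the number fell to 12 without GSK215 replicate 2 and to 15 without BSJ-04-0146 replicate 1 or 2 (17 without GSK215 replicate 1). The largest difference was that of Eif4ebp1, at 113 to 123 CPM with GSK215 and 146 to 157 with BSJ-04-0146 (-0.37, SE 0.055, edgeR adjusted p = 1.83e-06). Eif4a2 was higher with GSK215 (0.24, SE 0.035, edgeR adjusted p = 1.76e-06), and Eef2k (-0.23), Eef1a1 (-0.16), Eif1 (-0.16) and Eef2 (-0.13) were lower. Calls for Eif3a (0.12) and Eef1akmt1 (-0.25) were each lost without GSK215 replicate 2 or BSJ-04-0146 replicate 1, and also without BSJ-04-0146 replicate 2 (Eif3a) or GSK215 replicate 3 (Eef1akmt1). No difference was found for Eif2s2 (95% interval of the log2 difference -0.099 to 0.052), Eif5a (-0.082 to 0.058), Eif4g1 (-0.0064 to 0.106) or Eif4g3 (-0.012 to 0.115).

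At 1 µM, PROTAC FAK degrader 1 and defactinib differed in 54 members, 25 higher and 29 lower with the PROTAC, in a background of 68.9% called (34.9% higher, 34% lower). The largest differences were those of Eif4e3 (1.47, SE 0.089), Eif4ebp1 (1.17, SE 0.050) and Eef2k (1.05, SE 0.045) among the higher and of Eif4g1 (-1.06, SE 0.028), Eef1akmt1 (-0.92, SE 0.084) and Eif5 (-0.90, SE 0.034) among the lower. Eef2 was higher by 0.72 and Eef1a1 by 0.62. VS-4718 and defactinib, also at 1 µM, differed in 34 members, 24 lower and 10 higher with VS-4718, in a background of 34% called (18% higher, 16% lower). Eif2s2 was at 308 to 321 CPM with VS-4718 and 406 to 436 with defactinib (-0.43, SE 0.036, edgeR adjusted p = 2.01e-12), and Eef1a1 (-0.35) and Eif3j2 (-0.34) were also lower, whereas Eif4a3 (0.22), Eif4g3 (0.17) and Eif3h (0.16) were higher. At the adjusted p alone, the share of members called in these 2 pairs, 87.1% and 54.8%, stood above the background share. At a fold change of at least 1.5 the first of these pairs kept 13 members (background 33.3%), the second 0 (3.88%), and GSK215 against BSJ-04-0146 0 (1.58%).

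Apart from Eef1a1 with VS-4718, all calls with the kinase inhibitors were below a fold change of 1.5, and the largest are given here. With defactinib the largest falls were those of Eef1akmt2 (16.2 to 17.6 CPM with DMSO, 12.0 to 14.0 with the compound, -0.38), Eef2kmt (-0.25, given above), Eef1e1 (-0.24), Eef1a1 (-0.24) and Eif3i (-0.21). With VS-4718, after Eef1a1, they were those of Eef2kmt (-0.57), Eif2s2 (-0.46), Eif5 (-0.46) and Eef1b2 (-0.44), and Eif2b2 and Eif2d, a ribosome recycling factor, rose by 0.17 and 0.15. These rises of Eif2b2 and Eif2d were lost without VS-4718 replicate 1, and without DMSO replicate 2 or VS-4718 replicate 2. GSK2256098 lowered Eif3m (-0.25), Eif2s3x (-0.23), Eif2s2 (-0.20), Eef1e1 (-0.19) and Eif3j2 (-0.19, lost without its replicate 2 or 3), and raised Eif4g3 (0.21). IN10018 raised Eif4b (0.11) beside Eif1b and Eif4ebp1, and lowered Eif3j2 (-0.17), Eif4g2 (-0.11), Eif4a2 (-0.11) and Eif4g1 (-0.11). The calls of Eif3j2 and Eif4a2 with IN10018 were each lost on leaving out DMSO replicate 2, IN10018 replicate 2 or IN10018 replicate 3, and also on leaving out DMSO replicate 1 for Eif3j2, and DMSO replicate 3 or IN10018 replicate 1 for Eif4a2.

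Other genes of translation were taken from a list of 47 (termination and recycling, helicases and poly(A)-binding, signalling to the factors, hypusine and diphthamide enzymes, selenocysteine and mitochondrial factors), of which 46 were tested. GSK215 lowered 32 and raised 6, BSJ-04-0146 lowered 31 and raised 7, and PROTAC FAK degrader 1 lowered 22 and raised 15. Of all genes tested, 27.2%, 26.9% and 32.7% were lower and 27.4%, 27.7% and 34.1% higher with these compounds, so the rises with PROTAC FAK degrader 1 stood near the background. VS-4718 lowered 24 and raised 8, defactinib 13 and 2, GSK2256098 14 and 1, and IN10018 7 and 5, against 18.9% and 20.4%, 11% and 11.4%, 6.09% and 6.36%, and 6.85% and 6.44% of all genes lower and higher. The list's median log2 fold change was -0.324 with GSK215, -0.255 with BSJ-04-0146 and -0.0834 with PROTAC FAK degrader 1, against 0.021, 0.018 and 0.0045 over all genes. Termination and recycling genes, such as Etf1, Gspt1 and Abce1, fell in 7 of 8 cases with GSK215 and BSJ-04-0146 and in 6 of 8 with PROTAC FAK degrader 1, where 27.2%, 26.9% and 32.7% of all genes fell.

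Some of these genes act directly on the members, and 4 of them, chosen after their values were seen, are given here. Pdcd4, an inhibitor of eIF4A, was at 12.4 to 13.5 CPM with DMSO, 60.4 to 64.1 with PROTAC FAK degrader 1, 32.3 to 35.9 with GSK215, 32.7 to 35.0 with BSJ-04-0146 and 19.9 to 20.1 with VS-4718, so it rose with each PROTAC. Ppp1r15a, the GADD34 subunit of the eIF2 phosphatase, was at 22.6 to 23.7 CPM with DMSO and 161 to 180 with PROTAC FAK degrader 1 (2.86, SE 0.048, edgeR adjusted p = 2.28e-35), but at 13.9 to 16.6 with GSK215 and 17.8 to 19.8 with BSJ-04-0146, both below DMSO. Mknk1, a kinase of eIF4E, likewise rose with PROTAC FAK degrader 1 (1.24) and fell with GSK215 (-0.41) and BSJ-04-0146 (-0.50). Ddx3x, a helicase of initiation, fell with all 3, to 368 to 399 CPM with PROTAC FAK degrader 1 from 798 to 811 with DMSO.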

How the data were processed

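Poly(A)-selected RNA of 24 samples of MS03 cells (8 groups of 3) was sequenced by a commercial service. The authors deposited raw counts of reads per Ensembl gene, not normalized. The submitters' processing notes name Trimmomatic 0.36, STAR 2.5.2b, featureCounts in Subread 1.5.2 and build GRCm38, while the strand setting is not given in the sources used here. Libraries were assigned by the sample number in the column name and in the labels. Members and gene lists were chosen with earlier results of these data known.

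A single model (edgeR 4.0.16 in R 4.3.3, glmQLFit and glmQLFTest) with a coefficient for each group was fitted to genes passing filterByExpr, with TMM factors and 16 residual degrees of freedom, and in each of 12 comparisons the Benjamini-Hochberg adjustment covered all genes tested. Levels are TMM-scaled CPM. The 3 PROTACs and the 4 kinase inhibitors were averaged with equal weight per compound. Intervals are at 95% and come from the fit. For each compound and for the class comparison, up to 5 rises and 5 falls (3 and 3 in other comparisons) were named among called members whose libraries did not overlap, with paralog pairs, eIF2 kinases and 4E-binding genes besides, and other members are given as examples by role, chosen after their values were seen. Exon length came from GENCODE M21, where all 62 members were found. The fit was also run on simulated data, the outcome of which is not given here. Replicates differed by more than sampling noise (chi-square per degree of freedom 1.73 to 8.48 over 24 pairs). Alternatives were DESeq2 1.42.0, and limma 3.58.1 on log2(CPM + 4), where only the transformation was taken from the study's methods. Others were library totals, no filter, a replicate block, only the groups compared, each library left out, and a fold change of at least 1.5. The class comparison without PROTAC FAK degrader 1 was added after seeing the data. Depth, 14472462 to 27449516 counts, limits precision least for the most abundant members and most for Eif4e3. Of the Schwann cell markers chosen, 1 is left out and not reported here.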

Additional observations from a re-analysis of the deposited data

How the results depend on the processing

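The naming rule took the largest called changes with non-overlapping libraries in these same data, which favours stable calls. Of the 86 changes it picked, none reversed under any alternative run. Outside them, 5 small falls changed sign with library totals, 4 given above and that of Eif4e2 with BSJ-04-0146 (-0.07 to 0.03). All 86 kept their call with DESeq2, limma, library totals, the replicate block and only the groups compared. Without the filter 84 kept it, and 74 kept it in every fit that left out 1 library. Over all members called, not every call held in all these fits, the fold change limit aside. Those kept were 27 of 37 with defactinib, 33 of 45 with VS-4718, 15 of 25 with GSK2256098 and 5 of 7 with IN10018. With PROTAC FAK degrader 1, GSK215 and BSJ-04-0146 they were 49 of 55, 48 of 57 and 44 of 53. In direct comparisons they ran from 11 of 22 for GSK215 against BSJ-04-0146 to 54 of 54 for PROTAC FAK degrader 1 against defactinib. The number of members called was within 1.5 times the reported one under most alternatives. With IN10018 it was 11 with DESeq2 and 15 with only the groups compared, as against 7. Requiring a fold change of at least 1.5 left 0 members with defactinib, 1 with VS-4718, 0 with GSK2256098, 0 with IN10018, 12 with PROTAC FAK degrader 1, 7 with GSK215 and 5 with BSJ-04-0146. It left 2 for PROTACs against kinase inhibitors, 16 for PROTAC FAK degrader 1 against the other PROTACs, 0 for GSK215 against BSJ-04-0146, 13 for PROTAC FAK degrader 1 against defactinib and 0 for VS-4718 against defactinib. That setting keeps fewer genes by construction, and the cause of the other differences was not tested. Leaving out 1 library gave 16 to 24 members called with GSK2256098 and 12 to 23 for GSK215 against BSJ-04-0146. Replicate numbers did not pair the libraries: over 84 same-numbered pairs the correlation of deviations ran from -0.203 to 0.132, with a median of -0.0028, and 6 of 24 libraries correlated best with their own number. With the replicate block the number called was 37, 43, 25 and 8 for defactinib, VS-4718, GSK2256098 and IN10018, and 55, 58 and 52 for PROTAC FAK degrader 1, GSK215 and BSJ-04-0146. Calls of the low-abundance members Eif4e3, Eif5a2, Eef1akmt2, Eef1akmt1 and Eef2kmt rest on the fewest counts.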
